A study of Arabidopsis thaliana with 3 samples.

Results

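Cytochrome P450 genes were examined in a chromatin immunoprecipitation sequencing (ChIP-seq) study of BDH1, a BCL-domain homolog protein of Arabidopsis thaliana tied, by the title of the series, to stability of the nucleosome-remodelling SWI/SNF complex. Members were protein-coding genes on chromosomes 1 to 5 whose symbol or synonym has the form of a P450 name, such as CYP71B15. Of 234 such genes 2 were left out, which gave 232 of 27444 protein-coding genes. Of these, 219 were found by symbol and 13 by synonym alone, and they fell into 45 families by the number after CYP. The 2 BDH1-FLAG samples came from inflorescences of soil-grown, long-day plants that were mutant for bdh1-1 and expressed a FLAG-tagged BDH1 transgene, and 1 wild-type sample without the tag was immunoprecipitated with the same anti-FLAG antibody. The promoter driving the transgene and the number of plants or lines behind each sample are not given in the labels, so the 2 samples may be technical replicates. That wild-type library was not analysed here, and no signal without the tag stands beside the values below.

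P450 enzymes are haem-containing monooxygenases that insert oxygen into small molecules. In plants they form one of the largest enzyme families and act in the synthesis of lignin, sterols, carotenoids, cutin and pollen wall polymers, in making and removing hormones, and in a large array of defence compounds. Many of the defence genes lie in rows of recent duplicates, whereas the enzymes of general metabolism are often encoded by a single gene that is conserved across land plants. SWI/SNF complexes move or evict nucleosomes, and peaks of a complex subunit mark regions where it was cross-linked to chromatin.

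The authors deposited a list of 16653 peaks for replicate 1 and of 16413 peaks for replicate 2. Each peak has a fold enrichment (a linear ratio given by the authors) and a −log10 q. The median fold enrichment over all peaks was 2.25 in replicate 1 and 2.23 in replicate 2, and neither list gives its read depth. To count, a peak interval had to overlap the gene by at least 1 bp in both lists. Ranks below are by fold enrichment within a list, with rank 1 the highest.

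Few P450 genes carried BDH1-FLAG peaks. A peak lay on 50 of the 232 genes in both lists (21.6%, exact 95% interval 16.4% to 27.4%), while 45.4% of all protein-coding genes had one. Replicate 1 alone gave 59 P450 genes, or 25.4% against 48.9% of protein-coding genes, and replicate 2 alone gave 60, or 25.9% against 49.8%. A further 19 genes had a peak in a single list, and 163 genes (70.3%) had none in either list, against 46.8% of protein-coding genes. The share of genes with a peak in a single list was close to the background, at 8.19% against 7.82%. In both lists 44 genes (19.0%) held the summit of a peak, against 42.0% of protein-coding genes. All 5 chromosomes had a share below their background, from 15.2% on chromosome 1 (7 of 46 genes) to 28.9% on chromosome 4 (13 of 45), where protein-coding genes had shares of 45.8% and 44.8%. No test was made of these differences or of those below, because the gene list was chosen with results of these data known, and intervals cover counting error over genes only. The intervals treat genes as independent, although 127 of the 232 lay in runs of neighbouring P450 genes, described below.

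Longer P450 genes had peaks more often, and the share was below the background at each length. P450 genes had the same median length as all protein-coding genes, 2078 bp, and a narrower range, with a lower decile of 1717 bp and an upper decile of 3152 bp. Within that range 39 of 184 P450 genes (21.2%) had a peak in both lists, against 53.4% of the protein-coding genes of these lengths. Of the 36 P450 genes of 1.5 to 1.8 kb, 1 had a peak in both lists (2.78%), CYP77A4, whereas 42.9% of protein-coding genes in that bin did. The share was 11.1% at 1.8 to 2 kb (6 of 54), 25.3% at 2 to 2.5 kb (20 of 79), 37.5% at 2.5 to 3 kb (12 of 32) and 37.9% at 3 kb or more (11 of 29). The corresponding background shares were 47.3%, 53.1%, 57.8% and 61.8%, and the P450 share was below the background in each of these 5 bins. The 2 P450 genes under 1.5 kb had no peak.

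**Figure D1:**
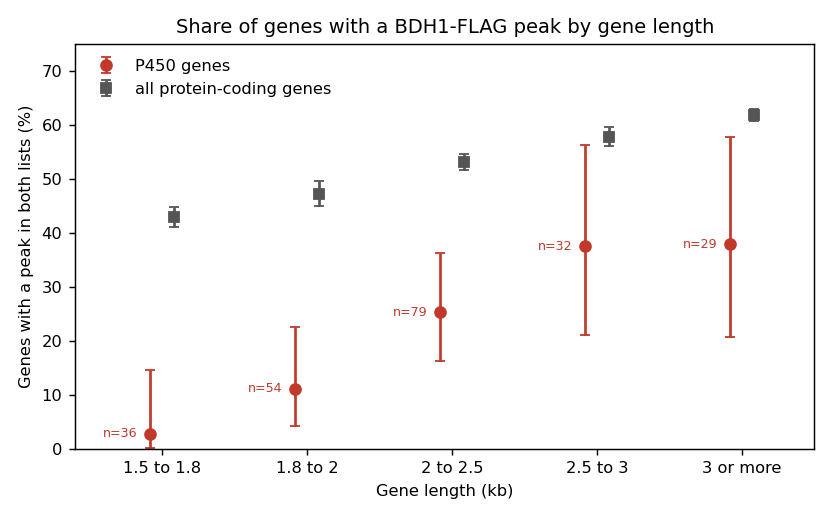
Percentage of genes with a BDH1-FLAG peak in both lists (y axis) by gene length in kb (x axis) for P450 genes (red circles, n printed beside each) and all protein-coding genes (grey squares); bars are exact 95% binomial intervals over genes. The P450 share climbs from 1 of 36 genes at 1.5 to 1.8 kb to 37.9% at 3 kb or more, and each red point lies below its grey point.

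The genes beside the P450 genes had peaks about as often as genes in general. Of the 301 protein-coding genes that were the nearest non-P450 gene on either side of a member, 136 (45.2%) had a peak in both lists, which is close to the background of 45.4%. Beside P450 genes that stood alone the share was 48.6% (102 of 210), and beside P450 genes that stood next to one another it was 37.4% (34 of 91). The 163 P450 genes without any peak lay at a median distance to the nearest peak of 3391 bp in replicate 1 and 3407 bp in replicate 2, against 2864 bp and 2832 bp for all protein-coding genes without a peak. More than 5 kb from any peak of either list lay 48 of them (29.4%), against 28.8% of all protein-coding genes without a peak.

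Families differed widely in how many members had a peak. In the CYP71 family, the largest and rich in defence enzymes, 3 of 49 genes had a peak in both lists: CYP71B6, CYP71B20 and CYP71B26. All 16 CYP71A genes were without a peak in either list. CYP705 had 3 of 24, and CYP96 had 2 of 12. Among families of 4 or more genes, no member had a peak in both lists in CYP76 (8 genes), CYP79 (7), CYP702 (6) and CYP82 (5), and in CYP702 and CYP82 no peak was found in either list alone. Counts nearer to the background of 45.4% were found in CYP707 (2 of 4 genes), CYP72 (4 of 9), CYP86 (4 of 10) and CYP77 (3 of 5). In CYP86 the peaks lay on CYP86A genes, 4 of 5, while 0 of 4 CYP86C genes had a peak in both lists. All 3 CYP97 genes had one. Families this small give wide exact intervals, from 14.7% to 94.7% for CYP77. Median gene length also differed, at 1947 bp in CYP71, 1964 bp in CYP705 and 1822 bp in CYP96, against 2768 bp in CYP707 and 3472 bp in CYP97. The reverse held for CYP77, at 1812 bp, and for CYP76, CYP79, CYP702 and CYP82, at 2290.5, 2455, 2691.5 and 2214 bp. The part of length in these counts was not tested.

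**Figure D2:**
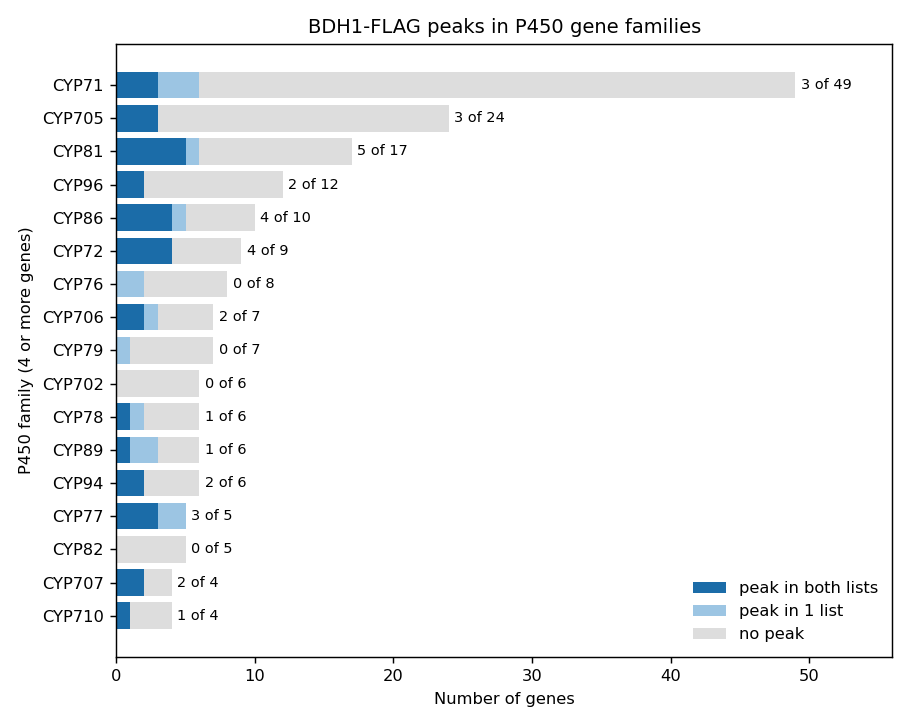
Number of genes (x axis) in each P450 family of 4 or more members (y axis), divided into genes with a peak in both lists (dark blue), in a single list (light blue) and in neither (grey). CYP71 has 3 of 49 genes in dark blue, whereas CYP77 has 3 of 5.

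By deeper groups of the P450 tree, called clans, the CYP71 clan (the A-type enzymes) had 22 of 148 genes with a peak (14.9%). The CYP85 clan had 6 of 24 (25.0%), the CYP86 clan 8 of 31 (25.8%) and the CYP72 clan 7 of 19 (36.8%). Of the 10 genes in clans that consist of a single family (CYP51, CYP74, CYP97, CYP710 and CYP711), 7 had a peak (70.0%, exact 95% interval 34.8% to 93.3%, which includes the background of 45.4%). Of these 10 genes, 6 held a summit in both lists (60.0%, against 42.0% of protein-coding genes), and CYP710A2 had its peaks at different sites in the lists. Median gene length did not follow the order of the clans. It was 2010.5 bp in the CYP71 clan, 3029 bp in CYP85, 1898 bp in CYP86, 2564 bp in CYP72 and 2501 bp in the single-family clans. The share also differed by family size. Families of 10 or more genes had 17 of 112 (15.2%), families of 3 to 9 genes 22 of 88 (25.0%), and families of 1 or 2 genes 11 of 32 (34.4%), all below the background. From the largest families to the smallest, median gene length rose from 1948.5 to 2245.5 and 2738.5 bp, and its part in this order was not tested.

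A list of 83 members with a known metabolic role, in 15 groups, was then followed. Of these genes 28 (33.7%) had a peak in both lists, against 22 of the 149 members without a listed role (14.8%), and both shares were below the 45.4% of all protein-coding genes. The groups below hold 1 to 11 genes each, so their counts describe single genes and were not read as shares that differ from the background. The median length of the genes with a role was 2376 bp, against 2014 bp without one.

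The carotenoid group, the same 3 genes as the CYP97 family above, was the most complete, with all 3 members carrying a peak. Its exact interval was 29.2% to 100%. All 3 were longer than 3 kb, and 61.8% of protein-coding genes of 3 kb or more had a peak. CYP97A3, a beta-ring hydroxylase of carotenes, had a fold enrichment of 3.51 in replicate 1 (rank 528) and 3.46 in replicate 2 (rank 307). Its peak spanned positions 11396218 to 11396786 of chromosome 1 in replicate 1 (coordinates of the lists, whose build is TAIR10 per the submitters' processing notes) and 11396287 to 11396820 in replicate 2, and the summits lay 4 bp apart, 134 and 130 bp inside the gene, a closer match than at most P450 genes. CYP97C1 (LUT1), the epsilon-ring hydroxylase on the way to lutein, had 3 peaks in each list, the highest at 3.29 and 2.85. CYP97B3, the remaining member of the family, reached 2.82 and 2.52. These 3 genes stood alone in the genome and all held the summit inside the gene in both lists.

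In phenylpropanoid metabolism, which makes lignin and flavonoids, 4 of 7 genes had a peak in both lists (57.1%, near the 53.4% of protein-coding genes of P450 length). CYP73A5 (C4H), the cinnamate 4-hydroxylase at the entry of the pathway, had a fold enrichment of 2.91 in replicate 1 (rank 2263) and 3.37 in replicate 2 (rank 412), with summits 345 and 349 bp inside the gene. CYP98A3, which hydroxylates coumaroyl esters on the way to lignin, reached 2.52 and 2.33, and an annotated long non-coding RNA gene lay under the same peak. CYP75B1 (TT7), the flavonoid 3′-hydroxylase, had 4 peaks in replicate 1 and 3 in replicate 2. CYP84A4, an enzyme of arabidopyrone synthesis, was lower at 2.16 and 2.03. CYP84A1 (FAH1), the ferulate 5-hydroxylase of syringyl lignin, had a peak of 1.80 in replicate 1 and none in replicate 2. CYP98A8 and CYP98A9, which act on spermidine conjugates of the pollen coat, had no peak in either list, although they are relatives of CYP98A3. Within sterol synthesis, CYP51G1, the sterol demethylase, had a peak of 2.29 and 2.12. Of the 4 sterol desaturase genes of the CYP710A group, CYP710A2 had a peak in each list (2.07 and 2.22), but the intervals did not overlap, at positions 14536448 to 14537081 of chromosome 2 in replicate 1 and 14535600 to 14535883 in replicate 2. The genes CYP710A1, CYP710A3 and CYP710A4 had none.

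Among hormone genes, those that remove abscisic acid split evenly. CYP707A3, an abscisic acid 8′-hydroxylase, had a fold enrichment of 3.23 in replicate 1 (rank 1057) and 2.89 in replicate 2 (rank 1814), and peaks covered 75.9% and 69.0% of the gene. CYP707A1 was covered over 61.9% and 50.6% by lower peaks of 1.99 and 2.16. The other two genes, CYP707A2 and CYP707A4, were without a peak in both lists, and CYP707A2 was the longest of the group at 4898 bp.

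Brassinosteroid genes also had 3 of 6 with a peak, near the background of 45.4%. All 6 were longer than 3 kb, and 61.8% of protein-coding genes of 3 kb or more had a peak. The exact interval of the group, 11.8% to 88.2%, includes both of these shares. CYP85A2, a 6-oxidase that completes brassinolide synthesis, reached 2.18 and 2.26, while its close relative CYP85A1 had no peak. CYP90C1 (ROT3), a C-23 hydroxylase, reached 2.22 and 1.86, and CYP90D1, with the same activity, had none. CYP734A1 (BAS1), which inactivates brassinosteroids, reached 2.59 and 1.94, and CYP72C1, another inactivating enzyme, had none. In each of these 3 pairs a single gene had a peak in both lists.

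Of 6 gibberellin genes, 1 had a peak in both lists (16.7%, against 21.6% of all P450 genes and 45.4% of protein-coding genes). The exact interval of the group, 0.421% to 64.1%, includes both of these shares. CYP88A4 (KAO2), an ent-kaurenoic acid oxidase, had low peaks of 1.76 and 2.07. Its relative CYP88A3 had a peak in replicate 2 alone (2.20), and CYP701A3 (GA3), the ent-kaurene oxidase, in replicate 1 alone (2.11). CYP714A1 and CYP714A2, which inactivate gibberellins, and CYP72A9, a 13-hydroxylase, had none. For jasmonate and related oxylipins, CYP94C1, which oxidises jasmonoyl-isoleucine, reached 2.85 and 2.20, and CYP74B2 (HPL1), the hydroperoxide lyase of green leaf volatiles, reached 2.66 and 2.27 with 3 peaks in each list. CYP94B1 and CYP94B3, the other jasmonoyl-isoleucine hydroxylases listed, had none. CYP711A1 (MAX1), the carlactone oxidase of strigolactone synthesis, had the lowest peaks of all 50 genes by mean rank, at 1.82 and 1.65, and their summits lay 12 and 1 bp outside the gene. The cytokinin hydroxylase genes CYP735A1 and CYP735A2 had no peak.

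Surface lipid genes had peaks on 6 of 9 members, among them enzymes of flower cutin. The exact interval of that share, 29.9% to 92.5%, includes the background of 45.4%. CYP86A8 (LACERATA), a fatty acid omega-hydroxylase of cutin, lay under a broad peak of 4688 bp in replicate 1 and 4409 bp in replicate 2, with fold enrichments of 3.63 (rank 396) and 3.28 (rank 552). The peak covered 99.5% and 100% of the gene and reached into the aquaporin gene PIP1B. Its summit lay inside CYP86A8 in replicate 1 and 204 bp outside it, in PIP1B, in replicate 2, so which gene holds the centre differed between the lists. CYP77A6, the in-chain hydroxylase of flower cutin, reached 2.56 and 2.74, with 96.3% and 75.2% of the gene covered. CYP86A4, its partner omega-hydroxylase in flowers, had 3 and 2 peaks of 2.05 and 1.81 at most. CYP77A4, a fatty acid epoxygenase, reached 2.45 and 2.30, CYP86A2 (ATT1) 2.32 and 2.09, and CYP86A7 2.10 and 1.97. The summit at CYP77A4 also lay inside the overlapping protein-coding gene AT5G04670 in both lists, and that at CYP86A2 inside an annotated long non-coding RNA gene. The suberin genes CYP86A1 and CYP86B1 and the alkane hydroxylase gene of stem wax, CYP96A15, had no peak.

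The pollen wall genes CYP703A2 and CYP704B1, fatty acid hydroxylases needed for sporopollenin and known for expression in the anther, had no peak in either list, though peaks of both lists lay within 250 bp of CYP703A2. In the CYP78A group of organ growth regulators, CYP78A7 had a peak (2.27 and 2.13). CYP78A9, which acts in fruit and seed size, had a peak of 2.20 in replicate 1 alone. CYP78A5 (KLUH), a promoter of organ size, and CYP78A6, CYP78A8 and CYP78A10 had none.

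Most listed defence genes had no peak in either list, which also held for 70.3% of all P450 genes and 46.8% of protein-coding genes. In the glucosinolate group, 1 of 11 genes carried peaks of both replicates. The exact 95% interval of that share, 0.230% to 41.3%, includes the 21.6% of all P450 genes. It lies below the 45.4% of protein-coding genes, a difference that was not tested. The gene with peaks was CYP81F1, which modifies indole glucosinolates, at 1.87 and 2.06. The summit of its peak also lay inside an annotated long non-coding RNA gene in both lists. CYP79F1, CYP79F2, CYP79B3 and CYP79A2, which convert amino acids to aldoximes, and CYP83A1 and CYP83B1, which oxidise the aldoximes, had no peak in either list, nor did CYP81F2 and CYP81F4. CYP79B2 had a peak of 2.15 and CYP81F3 a peak of 2.02, both in replicate 1 alone. Of the 5 genes of camalexin and related indole compounds, CYP71B6 had a peak, at 2.36 in replicate 1 (rank 6835) and 3.19 in replicate 2 (rank 747). That count, 1 of 5 (20.0%), was near the 21.6% of all P450 genes and below the 45.4% of protein-coding genes. Its exact interval, 0.505% to 71.6%, includes both shares. CYP71A12, CYP71A13 and CYP71B15 (PAD3), the core enzymes of camalexin, and CYP82C2 had none. Among 11 terpenoid genes, CYP706A3, which oxidises floral terpenes, had peaks of 2.20 and 1.94. That count, 1 of 11 (9.09%), had an exact interval of 0.230% to 41.3%. The interval includes the 21.6% of all P450 genes and lies below the 45.4% of protein-coding genes, which was likewise not tested. CYP705A5 and CYP708A2 of the thalianol pathway, CYP71A16 of the marneral pathway and CYP705A1, which cleaves arabidiol, had none. CYP76C1, which oxidises linalool in flowers, had a peak of 2.06 in replicate 2 alone, and CYP76C3 and CYP71B31 of the same process had none. CYP82G1, which makes a volatile homoterpene, and the triterpene oxidase genes CYP716A1 and CYP716A2 had none. CYP82C4, which makes the iron-mobilising coumarin sideretin, had none.

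Rows of neighbouring P450 genes were followed next. Members with no more than 1 other protein-coding gene between them were taken as one run, which placed 127 genes in 38 runs and left 105 standing alone. Genes that stood alone had a peak in 29.5% of cases (31 of 105) and genes in runs in 15.0% (19 of 127), both below the background of 45.4%. The runs were not uniform. Runs of 2 or 3 genes had 4 of 56 (7.14%), and the 12 runs of 4 or more genes had 15 of 71 (21.1%). The median length was 2164 bp for genes that stood alone, 2051.5 bp in the short runs and 2048 bp in the long runs.

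Of the 12 long runs, 3 had no peak of either list anywhere in their span. The longest of these, on chromosome 4, held 8 genes from CYP702A2 to CYP702A6 with CYP705A1 to CYP705A4 between them, over 80.0 kb and 12 protein-coding genes. The nearest peaks on its sides left a gap of 99.9 kb in both lists, from position 8714878 to 8814803 of chromosome 4 in replicate 1 and from 8714924 to 8814841 in replicate 2. Within it, CYP705A2 lay 48.0 kb from the nearest peak of replicate 1 and 47.9 kb from that of replicate 2, the farthest of all P450 genes without a peak. The run of 6 CYP71A genes from CYP71A26 to CYP71A21 lay in a gap of 25.5 kb in replicate 1 and 25.7 kb in replicate 2. The run from CYP705A28 to CYP705A33 lay in gaps of 23.7 and 17.3 kb. Gaps around other stretches of genes were not measured, so these lengths have no background beside them. Of all protein-coding genes, 46.8% had no peak in either list. Among genes without a peak, 12.9% of P450 genes and 13.9% of all protein-coding genes lay more than 10 kb from any peak.

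Other runs held peaks on separate members. On chromosome 3, CYP72A7, CYP72A11, CYP72A13 and CYP72A15 had peaks and the other 4 genes of that CYP72A run had none, with fold enrichments from 1.71 to 2.17 over both lists. The peak on CYP72A7 also touched AT3G14600 in both lists, and its summit lay 26 bp outside CYP72A7 in replicate 1. In the run from CYP705A15 to CYP705A23, peaks lay on CYP705A15, CYP705A18 and CYP705A21, with none above 2.26. The summit of the CYP705A18 peak lay outside that gene in both lists. CYP81H1, CYP81D5 and CYP81D4 had peaks while their neighbours CYP81D3, CYP81D2 and CYP81D8 had none. In the run of 9 CYP71B genes from CYP71B16 to CYP71B24, CYP71B20 alone had a peak in both lists. A single peak touched more than 1 P450 gene in 1 case, CYP706A4 and CYP706A5 in replicate 2, where it reached 5 bp into CYP706A5. How reads from near-identical copies were placed is not given in the sources used here, and its part in the low counts of these runs was not tested.

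**Figure D3:**
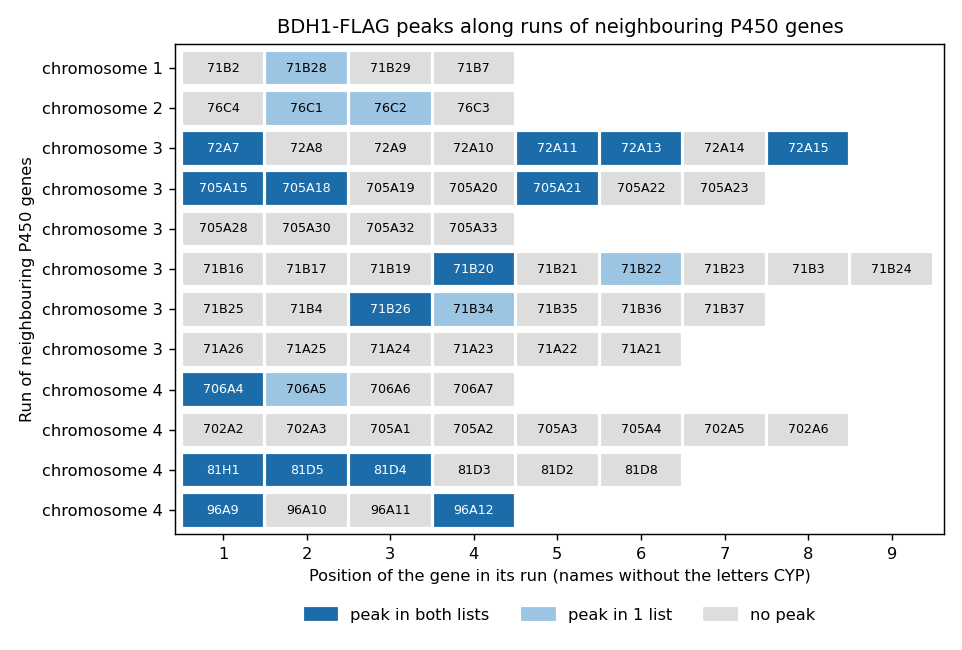
The 12 runs of 4 or more neighbouring P450 genes (y axis, by chromosome), with each gene drawn in its order along the chromosome (x axis) and coloured by a peak in both lists (dark blue), in a single list (light blue) or in neither (grey). The run of 8 genes with CYP702A and CYP705A members on chromosome 4 is grey throughout, and the CYP72A run of 8 genes has 4 in dark blue.

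The typical peak on the 50 genes was somewhat lower than on all protein-coding genes with a peak. The median fold enrichment of the highest peak on each gene was 2.24 in replicate 1 and 2.13 in replicate 2, against 2.43 and 2.41 for the 12466 protein-coding genes with a peak. Of the 50 genes, 11 (22.0%) in replicate 1 and 12 (24.0%) in replicate 2 reached a −log10 q of 10 or more, against 32.6% and 28.6%. Of the 50 genes, 4 in replicate 1 and 7 in replicate 2 had a peak among the highest 1000 of the list, where the share over all protein-coding genes with a peak was 9.02% and 9.27%. In both lists CYP81G1, CYP97A3 and CYP86A8 had a peak among the highest 1000.

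Some of the highest peaks were centred on a neighbour. CYP81G1 had the highest peak of all P450 genes, at 4.68 in replicate 1 (rank 25) and 3.50 in replicate 2 (rank 265), between positions 26853904 and 26855545 of chromosome 5 in replicate 1. Its summit lay 1022 and 1029 bp outside CYP81G1, inside MYBR1 (AT5G67300), a MYB transcription factor gene, and 330 and 202 bp of the peak reached into the P450 gene. The highest peak on CYP81H1, at 3.15 and 3.40, had its summit 841 and 1035 bp outside the gene, in AT4G37300, though other peaks had a summit inside CYP81H1 in both lists. In replicate 2 the highest peak touching CYP75B1 (2.78) met it over 13 bp and had its summit in AT5G08000, while in replicate 1 the highest (2.82) lay 968 bp inside the gene. In all, 5 of the 50 genes had the summit of their highest peak outside the gene in both lists, the others being CYP721A1, CYP711A1 and CYP705A18. At CYP711A1 and CYP705A18 no other protein-coding gene lay under that peak. List by list, the highest summit lay inside the gene at 88.0% and 84.0% of the 50 genes. Over all protein-coding genes with a peak these shares were 92.3% and 91.7%.

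High peaks centred on the P450 gene itself were those of CYP97A3, CYP73A5, CYP707A3 and CYP97C1, given above, and of CYP89A9. CYP89A9, which oxidises chlorophyll breakdown products, had fold enrichments of 2.93 (rank 2176) and 3.34 (rank 456), with summits 687 and 721 bp inside the gene and 79.7% and 72.3% of it covered. CYP97B3, CYP77A6 and CYP71B6 completed the 12 genes with the best mean rank. Of these 12 genes 9 had a listed role, as had 28 of all 50, and the role list was chosen with results of these data known.

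The peaks of the lists did not always mark the same site of a P450 gene. The summits of the highest peaks in the lists lay a median of 118 bp apart, against 71 bp over all protein-coding genes with a peak, and were within 100 bp of each other at 24 of the 50 genes (48.0%), against 62.6%. The highest peaks of the lists did not overlap at 6 of the 50 genes, against 4.79% of all, namely CYP710A2, CYP75B1, CYP74B2, CYP86A4, CYP706A3 and CYP708A3, so their paired values belong to different sites. All of these except CYP710A2 had another pair of peaks that overlapped between the lists.

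**Figure D4:**
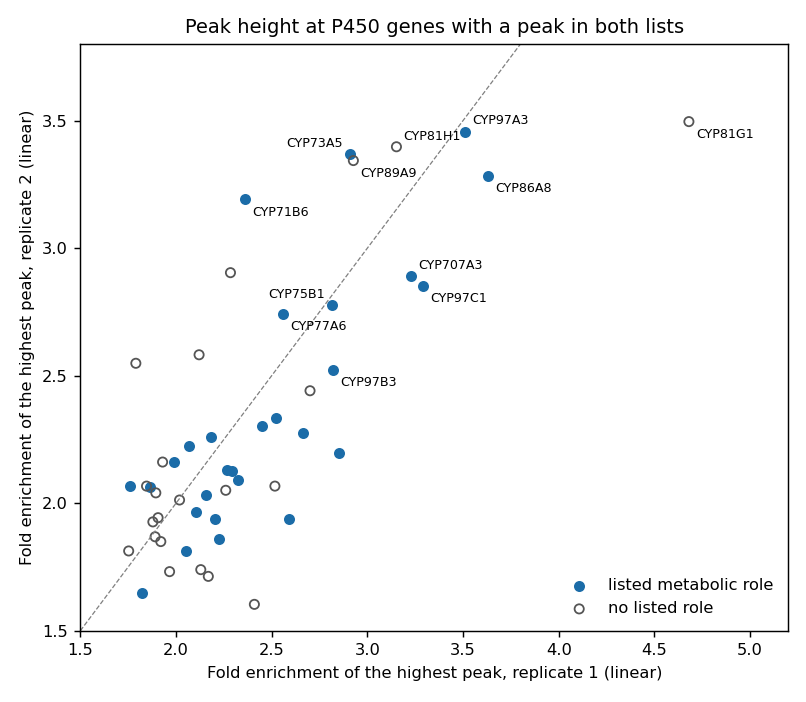
Fold enrichment of the highest peak on each of the 50 P450 genes with a peak in both lists, in replicate 1 (x axis) and replicate 2 (y axis), on linear scales; filled points are genes with a listed metabolic role, open points are not, and the dashed line marks equal values. The 12 genes with the best mean rank are named, and CYP81G1 stands apart at 4.68 and 3.50.

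Summits lay farther from the gene ends at P450 genes than over all genes with a peak. Where the highest peak had its summit in the gene, the median distance to the nearer gene end was 385 bp in replicate 1 and 390.5 bp in replicate 2, against 267 and 269 bp over protein-coding genes. Of these summits 65.9% and 69.0% were at most 500 bp from that end, against 87.7% and 87.3%. Summits inside the gene and within 250 bp of an end were found for 8 of the 50 genes (16.0%) in replicate 1 and 10 (20.0%) in replicate 2, against 41.3% and 40.7%. The difference was as large among genes of 1717 to 3152 bp, with medians of 403.5 and 411 bp against 269 and 271 bp. The gene table gives no strand, so 5′ and 3′ ends were not told apart, and no test was made of these differences.

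**Figure D5:**
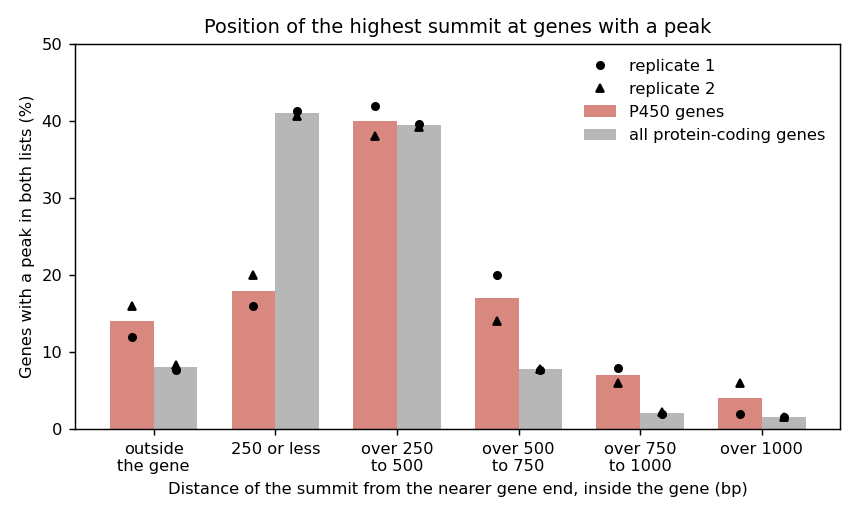
Position of the summit of the highest peak relative to the nearer gene end in bp (x axis) as a percentage of genes with a peak in both lists (y axis), for 50 P450 genes (red) and all 12466 protein-coding genes (grey); bars are the mean of both replicates, circles replicate 1 and triangles replicate 2. At 250 bp or less the P450 genes reach 16.0% and 20.0%, against 41.3% and 40.7%, and over 500 to 750 bp 20.0% and 14.0%, against 7.72% and 7.89%.

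Several peaks on a gene were common among the 50 genes. More than 1 peak lay on 17 genes (34.0%) in replicate 1 and 16 (32.0%) in replicate 2, against 15.5% and 15.7% of protein-coding genes with a peak. In both lists this was so for 11 genes (22.0% against 8.01%), among them CYP97C1, CYP74B2, CYP75B1, CYP77A4 and CYP89A9. At least 50% of the gene was covered in both lists for 7 genes: CYP86A8, CYP89A9, CYP77A6, CYP74B2, CYP707A1, CYP77A4 and CYP707A3. That share, 14.0%, was close to the 13.5% of protein-coding genes with a peak. Of these 7 genes, 3 act in cutin or fatty acid oxidation and 2 in abscisic acid removal. All 50 genes included 6 of the surface lipid group and 2 of the abscisic acid group.

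The smallest overlaps among genes with a peak were 241 and 201 bp for CYP72A11 and 330 and 202 bp for CYP81G1. Just outside the rule, CYP706A5 was touched in replicate 2 and lay 73 bp from a peak in replicate 1, CYP71B10 lay 110 and 81 bp from peaks, and CYP82C2 lay 113 and 75 bp from them. With genes extended by 250 bp at both ends, 11 more P450 genes met the rule, 61 in place of 50, and for protein-coding genes the count went from 12466 to 13370. Of the 19 genes with a peak in a single list, 9 were in replicate 1 and 10 in replicate 2. Their highest fold enrichment was 2.33, at CYP715A1 in replicate 2, and in replicate 1 it was 2.20, at CYP78A9.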

How the data were processed

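ChIP-seq was made with an anti-FLAG antibody from inflorescences of 2 BDH1-FLAG samples and 1 wild-type sample, and the 2 deposited peak lists were used. Per the submitters' processing notes, Bowtie2 2.5.2, SAMtools, bedtools 2.31.1, MACS2 2.2.9.1 and build TAIR10 were used. The control library, thresholds and read filters are not given in the sources used here. The authors called peaks per sample, and their deposited lists give a fold enrichment (linear ratio), −log10 p, −log10 q, a score that was not used, and a summit offset. These are the authors' own values, and peaks were ranked or filtered by them only inside the same list.

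Genes came from a RefSeq table of assembly TAIR10.1, set directly against the TAIR10 peak positions. It has no strand or sequence, so no coordinates of the table and no sequences are printed. A further 2 genes with matching names were not analysed here. A gene with several P450 names took the name used in the role list, otherwise its symbol. Overlaps were computed in Python 3.11.15 with pandas 2.3.3 and numpy 2.4.6, and tested on simulated peaks. Exact binomial intervals used SciPy 1.17.1 and cover counting over genes only; read depth is unknown.

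Members, role groups and clans were chosen with earlier results of these data known, and no test was made. Named in the text are the 12 members with the best mean rank, every member with a listed role that a count turns on, families with many or no peaks, members near the rule's limit and members sharing a peak. Alternatives were stricter −log10 q thresholds, other overlap rules, each list alone, symbols alone and members that stood alone.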

Additional observations from a re-analysis of the deposited data

How the results depend on the processing

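In each of the 10 alternatives tried for the share of P450 genes with a peak, it was below that of protein-coding genes, and the ratio of the shares ran from 0.314 to 0.650, against 0.474 as reported. With peaks of a −log10 q of 5 or more, 22 genes had a peak in both lists (9.48% against 30.2%), and 19 held a summit. At 10 these counts were 9 (3.88% against 9.12%) and 5, as fewer peaks remain. Among the 105 genes that stood alone, 31 had a peak. That share was 29.5%, with an exact interval of 21.0% to 39.2%. The interval includes the 21.6% of all P450 genes, of which these genes are a part. Leaving out a replicate gave 59 to 60 genes (25.4% to 25.9%) and 52 to 55 with a summit inside. An overlap of 100 bp, coverage of 10% of the gene, a summit inside, genes extended by 250 bp and names by symbol alone gave 41 to 61 genes. No paired analysis was possible because a single group of samples has lists. With read depth unknown, a gene without a peak is not shown to lack BDH1.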

Other observations

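Outside the protein-coding genes, 12 annotated pseudogenes carry P450 names, and 1 of them, CYP705A14P, had a peak in both lists. That share was 8.33%, with an exact interval of 0.211% to 38.5% that includes the 2.17% of all 4843 pseudogenes. The peak on CYP705A14P, with a fold enrichment of 2.26 in replicate 1 and 2.05 in replicate 2, was also the peak counted for CYP705A15. Its summit lay inside CYP705A15 in both lists.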
